A study of Mus musculus with 2 samples.

Results

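Brown adipocyte identity is set by a small group of nuclear regulators, and 10 of them were followed here: Prdm16, Ehmt1, Ebf2, Zic1, Pparg, Ppara, Cebpa, Cebpb, Cebpd and Irf4. They were chosen by name, as brown fat and adipogenic regulators, with earlier results of these data already known. Each matched a single gene among the 54532 genes of the count table. All 10 passed a filter of at least 1 CPM (scaled counts relative to library size) on average over both libraries, as did 12973 genes in all. RNA was sequenced from the brown adipose tissue between the shoulder blades (interscapular), a fat that makes heat, of 1-month-old C57BL/6J mice labelled male. The control library came from 3 pooled littermates given as rheb FL/FL with no Cre named, and the rheb BAD KO library from 3 pooled Ucp1-cre; rheb FL/FL mice. Both groups therefore carry the floxed Rheb alleles, and Cre acts only in cells that switch on the Ucp1 promoter. Rheb is the small GTPase that turns on the growth kinase complex mTORC1.

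In brown fat, C/EBP-beta and C/EBP-delta act early in adipocyte formation and switch on PPAR-gamma and C/EBP-alpha, which then hold each other on and activate the genes of the mature fat cell. EBF2 and PRDM16 steer this general programme towards brown rather than white or muscle genes, PRDM16 in part through the histone methyltransferase EHMT1. PPAR-alpha and IRF4 add genes of fat burning and of the response to cold and fasting.

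Each group was 1 library, so no value has a replicate error and no test between mice was possible. The libraries held 21855229 (control) and 23699316 (knockout) counts, of which 20.99% and 27.65% fell on mitochondrially encoded genes. The part of this difference in the ratios below was not tested, beyond the scaling without those genes. Rheb had 1037 counts in control and 568 in knockout tissue, so that the ratio was 0.553 (0.499 to 0.613, the 95% counting interval). The control library goes against its sex label: Xist, the RNA of the inactive X chromosome, had 7452 and 4 counts, and the Y-linked genes Eif2s3y, Ddx3y, Kdm5d and Uty had 0, 0, 0 and 1 counts against 2653, 1484, 259 and 431. None of the 10 regulators lies on the X or Y chromosome (0 of 10), but Rheb genotype and sex-linked expression cannot be told apart in any difference below. In whole tissue, fewer cells of a type and less RNA per cell cannot be told apart either. Of the brown adipocyte markers, Ucp1 (2211 and 2887 CPM) and Fabp4 (7238 and 6550 CPM) were abundant in both libraries, and none of the 8 markers was at 0.

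Of the 10 regulators, 5 were higher in the knockout library (Irf4, Pparg, Cebpd, Ehmt1 and Zic1), 2 were lower (Cebpa and Ebf2) and 3 lay in between (Prdm16, Cebpb and Ppara). A gene counted as higher or lower when the ratio of its scaled counts reached 1.5-fold and the 95% exact binomial counting interval left out 1. By that rule 22.9% of all 12973 genes were higher and 22.9% lower. The 5 higher genes are a larger part of the 10 than of all genes, and the 2 lower ones are close to the background. Since the 10 were chosen with earlier results of these data known, the larger part is a description only. With plain total-count scaling, under which the all-gene median log2 ratio was -0.13 instead of -0.003, 3 of the 10 were higher and 2 lower, beside 18.3% and 28.5% of all genes; Ehmt1 and Zic1 then fell short of the threshold. At a 2-fold threshold Pparg and Irf4 were higher and Cebpa was lower, beside 11.1% of all genes higher and 11.7% lower. The median log2 ratio of the 10 was 0.52, with a range from -1.43 to 1.18, and that of all genes was -0.003.

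**Figure D1:**
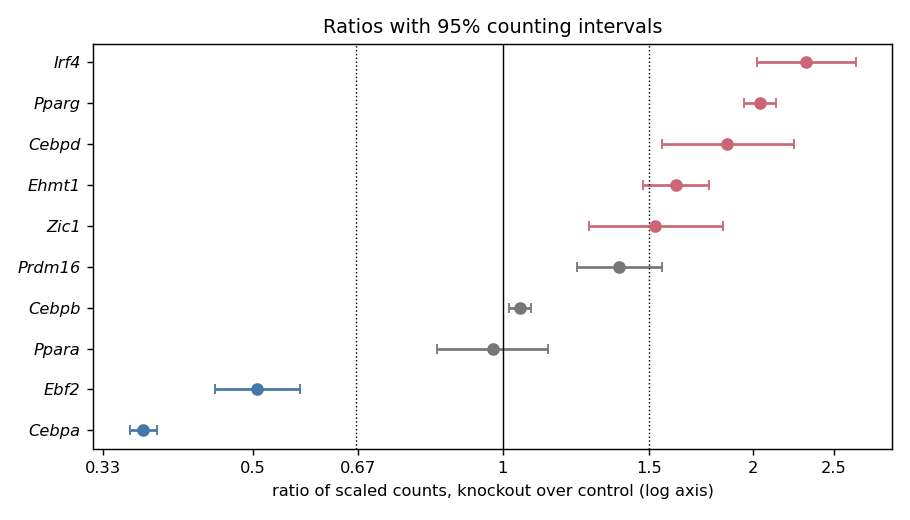
Ratio of scaled counts, knockout over control (log axis), for each of the 10 regulators. Points are 1 pooled library over another, bars are 95% counting intervals, dotted lines mark 1.5-fold, and colours mark higher (red), lower (blue) and in between (grey). Cebpa and Ebf2 lie left of the dotted line, with ratios of 0.369 and 0.507.

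Each of these ratios lay within the range of the other genes. On the high side, 5.87% of all genes had a higher ratio than Irf4 and 8.79% a higher one than Pparg, while 4.72% had a lower ratio than Cebpa and 10.8% a lower one than Ebf2. Ppara and Cebpb sat near the middle, with 48.1% and 53.7% of genes below them.

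**Figure D2:**
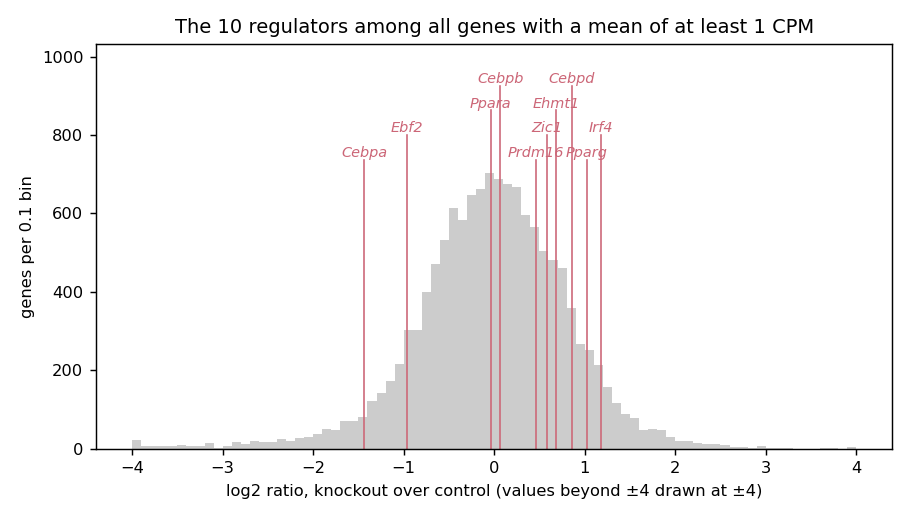
Histogram of log2 ratios, knockout over control, of the 12973 genes that passed the filter, in bins of 0.1 (values beyond 4 in either direction drawn at 4), with a red line for each of the 10 regulators. Cebpa (-1.43) and Ebf2 (-0.96) are on the left flank and Irf4 (1.18) and Pparg (1.02) on the right, all within the spread of the other genes.

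Levels were compared between genes as CPM per kilobase of exon. In the control library Cebpb was the most abundant (239), followed by Cebpa (173) and Pparg (45.6), and the other 7 lay between 1.49 (Zic1) and 5.37 (Ebf2). The order in the control library was Cebpb, Cebpa, Pparg, Ebf2, Ehmt1, Ppara, Irf4, Prdm16, Cebpd and Zic1. In the knockout library Cebpb stayed first (250.3), Pparg (92.8) stood above Cebpa (63.8), and Ebf2 stood ninth of the 10 (2.72). The counting intervals of neighbours overlapped for Ehmt1 and Ppara, Irf4 and Prdm16, and Prdm16 and Cebpd in the control library. In the knockout library they overlapped for Ehmt1 and Irf4, Cebpd and Ppara, Prdm16 and Ebf2, and Ebf2 and Zic1.

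**Figure D3:**
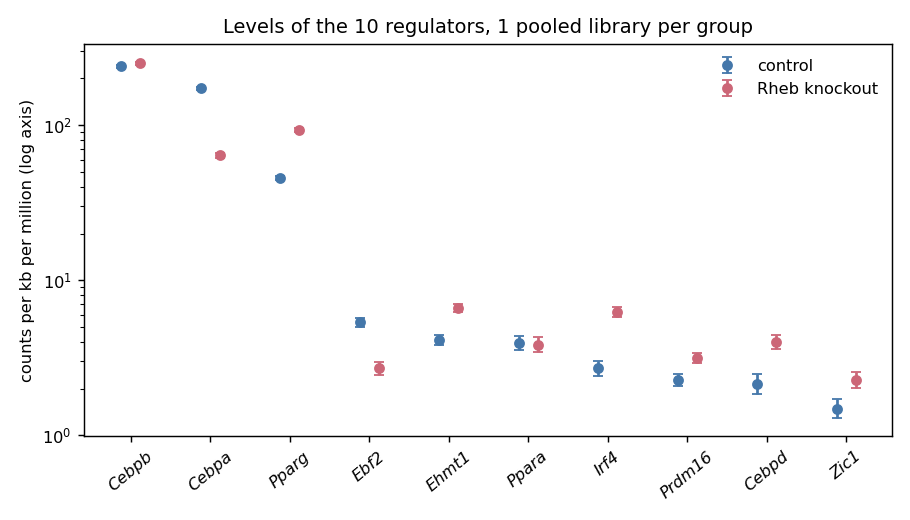
Level of each regulator in CPM per kilobase of exon (log axis), with 95% counting intervals, in the control (blue) and knockout (red) library. Cebpb, Cebpa and Pparg lie above 45 in both libraries and the other 7 below 7, and Cebpa and Pparg change places.

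Among the factors that define the brown lineage, Ehmt1 and Zic1 were higher in the knockout library, Ebf2 was lower and Prdm16 lay in between. Prdm16 (chromosome 4, 154316125 to 154636873, minus strand, mm10), a zinc finger coregulator that in mouse precursors favours brown fat over muscle, had 487 counts (21.3 CPM) in control tissue and 666 (29.4 CPM) in knockout tissue. Its ratio of 1.38 (1.23 to 1.56) fell short of the 1.5-fold threshold. Mecom, which encodes its closest paralog, had 218 and 246 counts, a ratio of 1.14 (0.946 to 1.37). The intervals of the ratios of these 2 genes overlap.

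Ehmt1 (chromosome 2, 24789928 to 24919614, minus strand), which encodes a methyltransferase of histone H3 lysine 9, had 762 and 1218 counts (33.3 and 53.8 CPM). It was 1.61-fold higher in the knockout library (1.47 to 1.77). The other genes of its complex were higher too: Ehmt2, which encodes the partner enzyme G9a, was 1.70-fold higher (1604 and 2696 counts), and the zinc finger genes Wiz and Zfp644 were 1.56-fold and 2.46-fold higher. All 4 genes were thus higher, beside 22.9% of all genes. With total-count scaling 2 of these 4 genes passed the threshold, beside 18.3% of all genes. With GC centring it was also 2, beside 22.3%. The number of Ehmt2 counts per Ehmt1 count was 2.10 in control tissue and 2.21 in knockout tissue, a change of 1.05-fold with an interval of 0.942 to 1.17.

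Ebf2 (chromosome 14, 67233292 to 67430918, plus strand), which marks brown fat precursors in mice and helps PPAR-gamma reach brown-selective genes, had 851 counts (37.2 CPM) in control tissue and 427 (18.9 CPM) in knockout tissue. It was 1.97-fold lower in the knockout library (1.75 to 2.22). Its paralogs did not share this value: Ebf1, a general factor of adipocyte and B cell formation, had 733 and 580 counts, a ratio of 0.799 (0.715 to 0.892), and Ebf3 had 911 and 1519, 1.68-fold higher (1.55 to 1.83). Ebf4 had 13 and 22 counts and did not pass the filter. Summed over the 4 genes the level was 109.7 CPM in control tissue and 112.5 CPM in knockout tissue. Per length, Ebf2 made up 40.8% of the family in control tissue and 21.1% in knockout tissue, and Ebf3 32.8% and 56.3%. The count of Ebf3 per count of Ebf2, which does not depend on scaling, was 1.07 and 3.56, a change of 3.32-fold (2.88 to 3.83). The count of Prdm16 per count of Ebf2 was 0.572 and 1.56, a change of 2.73-fold (2.31 to 3.21).

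Zic1 (chromosome 9, 91358058 to 91365810, minus strand), a zinc finger gene that tells the interscapular depot from other fat depots, had 194 and 293 counts (8.48 and 12.9 CPM). Its ratio of 1.53 (1.27 to 1.84) passed the threshold by little. The neighbouring Zic4 had 52 and 66 counts, Zic2 had 0 and 6, and Zic5 was at 0 in both libraries.

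The PPAR receptors differed from each other. Pparg (chromosome 6, 115360951 to 115490399, plus strand), the receptor required for any fat cell to form, had 3077 counts (135 CPM) in control tissue and 6208 (274 CPM) in knockout tissue. It was 2.04-fold higher in the knockout library (1.95 to 2.13). Ppara (chromosome 15, 85734983 to 85802819, plus strand), the receptor that drives fatty acid oxidation genes, had 347 and 334 counts (15.2 and 14.7 CPM), a ratio of 0.972 (0.834 to 1.13). The sign of the Ppara difference turned with total counts taken without the mitochondrial and 20 most abundant genes (ratio 1.01). Within each library there were 8.87 Pparg counts per Ppara count in control tissue and 18.6 in knockout tissue, a change of 2.10-fold (1.79 to 2.45). Ppard, the third receptor of the family, had 440 and 319 counts, a ratio of 0.732 (0.632 to 0.848). Among their RXR partners, Rxrb was 1.67-fold higher (1334 and 2204 counts), while Rxra (857 and 773 counts, ratio 0.911) and Rxrg (564 and 655 counts, ratio 1.17) lay in between. Rxrb no longer passed after centring on GC content, where 1 of the 6 genes was higher, beside 22.3% of all genes.

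The C/EBP genes had different ratios although all encode basic leucine zipper proteins. Cebpa (chromosome 7, 35119293 to 35121928, plus strand), which sustains the mature adipocyte together with PPAR-gamma, had 10415 counts (455 CPM) in control tissue and 3809 (168 CPM) in knockout tissue. It was 2.71-fold lower in the knockout library (2.61 to 2.81). Cebpb (chromosome 2, 167688915 to 167690418, plus strand), an early adipogenic factor and partner of PRDM16, had 8213 and 8526 counts (359 and 376 CPM), a ratio of 1.05 (1.02 to 1.08). Its sign turned with total-count scaling (0.957) and with GC centring (0.849). Cebpd (chromosome 16, 15887286 to 15891031, plus strand), the other early factor, was low, with 185 and 341 counts (8.09 and 15.1 CPM), and 1.86-fold higher in the knockout library (1.55 to 2.24). All 3 genes are a single exon block, and Cebpa and Cebpb are rich in GC (62.6% and 67.2% of the longest transcript, beside a median of 49.8% over all genes).

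Counted without any scaling, there were 1.27 Cebpa counts for each Cebpb count in control tissue and 0.447 in knockout tissue, 2.84-fold fewer (2.71 to 2.98). Pparg counts per Cebpa count went from 0.295 to 1.63, a change of 5.52-fold (5.21 to 5.84). Of the other family members, Cebpg was close to level (1389 and 1245 counts, ratio 0.905) and Ddit3, which encodes the stress-induced CHOP protein that binds other C/EBPs, was 2.11-fold higher (586 and 1222 counts). Cebpe, a gene of granulocytes, had 0 and 6 counts. Per length, Cebpa made up 39.3% of the 6 genes in control tissue and 17.7% in knockout tissue, and Cebpb 54.3% and 69.6%.

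**Figure D4:**
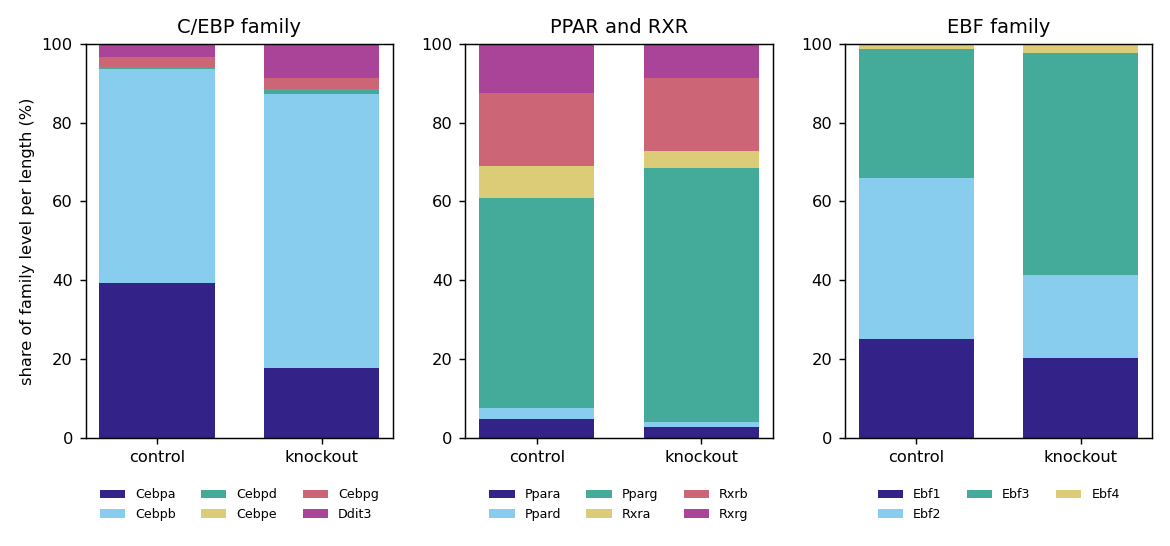
Share of each gene in the summed level per length (%) of its family, in the control and knockout library, for C/EBP, PPAR with RXR, and EBF genes. The Cebpa share is 39.3% and 17.7%, the Pparg share 53.3% and 64.6%, and the Ebf2 share 40.8% and 21.1%.

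The 250 bases upstream of the start are shown for the gene with the lowest ratio (Cebpa), its close relative with a ratio near 1 (Cebpb), and the 2 genes with the highest ratios (Irf4 and Pparg). They come from RefSeq on GRCm38.p6 and are read 5′ to 3′ on the gene's strand. RefSeq windows were matched for 8 of the 10 genes, and for Pparg the most downstream of its 3 listed starts is shown. Capitals mark TATAAA in Cebpa and Irf4, TGACG (the core of a cAMP response element, on either strand) in Cebpb, and CCAAT in Pparg.
Cebpa (chr7:35119043-35119292): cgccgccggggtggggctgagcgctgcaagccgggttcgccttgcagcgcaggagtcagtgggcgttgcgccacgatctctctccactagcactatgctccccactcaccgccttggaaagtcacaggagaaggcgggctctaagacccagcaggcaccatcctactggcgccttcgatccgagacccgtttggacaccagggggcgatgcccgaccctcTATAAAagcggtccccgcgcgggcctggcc
Cebpb (chr2:167688665-167688914): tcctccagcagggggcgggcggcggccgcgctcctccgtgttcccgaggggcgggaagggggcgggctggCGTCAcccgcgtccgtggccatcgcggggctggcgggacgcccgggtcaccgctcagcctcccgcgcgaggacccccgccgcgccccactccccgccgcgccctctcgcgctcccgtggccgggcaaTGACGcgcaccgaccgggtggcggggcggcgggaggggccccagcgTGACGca
Irf4 (chr13:30748983-30749232): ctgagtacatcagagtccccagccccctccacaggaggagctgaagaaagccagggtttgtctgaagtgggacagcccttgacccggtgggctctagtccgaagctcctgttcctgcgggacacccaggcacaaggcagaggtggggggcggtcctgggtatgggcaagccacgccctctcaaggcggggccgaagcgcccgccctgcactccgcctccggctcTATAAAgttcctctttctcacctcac
Pparg (chr6:115421816-115422065): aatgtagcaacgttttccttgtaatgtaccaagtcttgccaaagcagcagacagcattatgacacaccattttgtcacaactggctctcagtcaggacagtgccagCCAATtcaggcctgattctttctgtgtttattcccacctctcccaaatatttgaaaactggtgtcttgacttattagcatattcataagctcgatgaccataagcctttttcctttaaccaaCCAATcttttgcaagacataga

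The Cebpa window holds TATAAA from 30 to 25 bases before the start, and Irf4 holds it from 26 to 21 bases before. On both strands, 12.4% of all 32851 windows of this length hold these letters. Cebpb holds TGACG from 53 to 49 and from 7 to 3 bases before the start and its reverse complement from 180 to 176, and 17.8% of all windows hold it at least once. CCAAT stands at 144 to 140 and at 22 to 18 bases before the shown Pparg start, and is found in 33.8% of all windows. The C/EBP palindrome TTGCGCAA, present in 0.164% of all windows, was not in the windows of these 8 genes. These matches describe the letters only. The Pparg row of the table sums all of its transcripts, so its counts do not say from which start they came.

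Irf4 (chromosome 13, 30749226 to 30766976, plus strand), which in fat is induced by fasting and cold and works with PGC-1-alpha, had 303 counts (13.2 CPM) in control tissue and 695 (30.7 CPM) in knockout tissue. It was 2.32-fold higher in the knockout library (2.02 to 2.66), the largest ratio of the 10. Of the 8 interferon regulatory factors that passed the filter, 5 were higher and none was lower (0), beside 22.9% of all genes in each direction, with a median log2 ratio of 0.69. Irf8, Irf7, Irf9 and Irf5 were 2.06-fold (55 and 112 counts), 1.82-fold (286 and 515), 1.72-fold (458 and 779) and 1.61-fold (72 and 115) higher. Irf3 (1458 and 2082 counts, ratio 1.44), Irf1 (525 and 618, ratio 1.19) and Irf2 (197 and 146, ratio 0.748) lay in between.

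Irf4 is also a gene of lymphocytes and macrophages, and Cebpb and Cebpd are also genes of myeloid cells. Among macrophage markers 7 of 9 were higher and none was lower (0), beside 22.9% of all genes in each direction. Their summed level was 104 CPM in control tissue and 193 CPM in knockout tissue, led by Lyz2 (1005 and 1497 counts) and C1qa (310 and 702). The 8 neutrophil markers summed to 6.25 and 51.4 CPM, with S100a9 at 37 and 415 counts and Csf3r at 56 and 384, and Mpo was at 0 in both libraries, while Ly6g had 0 and 4 counts and Elane 7 and 0. The antibody genes Igkc (183 and 1333 counts), Ighm (505 and 1660) and Jchain (65 and 182) were higher. In contrast, the B cell markers Ms4a1, Cd79a, Cd79b and Pax5 had 5 to 23 counts in control tissue and 0 to 11 in knockout tissue. The 6 T cell markers summed to 1.57 and 1.72 CPM, with Trac at 13 and 14 counts Cd8a at 10 and 10, Cd3e at 3 and 0 and Cd3g at 1 and 0. The part of these cells in the values of Irf4, Cebpb and Cebpd was not tested.

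Markers of other cells moved with the libraries as well. The counts of higher and lower markers stand beside 22.9% of all genes higher and 22.9% lower. Skeletal muscle markers summed to 3155 and 378 CPM, and all 12 were lower in the knockout, led by Acta1 (24435 and 2008 counts) and Tnnt3 (8164 and 1272). The myogenic regulators were low: Myod1 had 22 and 0 counts, Myf6 36 and 4, Pax7 11 and 0, Myog 10 and 0, and Myf5 2 and 0, and only Mef2c passed the filter (1.80-fold lower). The preadipocyte and fibroblast markers summed to 359 and 534 CPM, with 7 of 9 higher (Ly6a 1556 and 2676 counts, Col3a1 4035 and 4036). The endothelial markers summed to 576 and 531 CPM. Of the 6, 1 was higher (Vwf, 185 and 627 counts), which is near the all-gene share. The other 5 lay in between. Cdh5 (3972 and 3288 counts), Kdr (3898 and 2695) and Pecam1 had ratios below 1, and Tek and Flt1 above 1. Smooth muscle markers summed to 189 and 249 CPM (Rgs5 3765 and 2747 counts, Acta2 297 and 1648). Of the 4 that passed the filter, 3 were higher and Rgs5 lay in between (ratio 0.737), with a median log2 ratio of 2.25. Schwann cell markers summed to 41.1 and 69.4 CPM, with 4 of 5 higher and S100b lower (648 and 234 counts). Brown adipocyte markers summed to 13557 and 12609 CPM, with 2 of 8 lower, none higher (0) and 6 in between. The lower count is near the all-gene share. The part of muscle and stromal RNA in the values of Cebpa, Ebf2, Pparg and Zic1 was not tested.

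Among 24 partners of PRDM16 and EBF2, 5 were higher and 2 lower while 17 lay in between. The higher count is near the 22.9% of all genes that were higher, and 22.9% of all genes were lower. Their median log2 ratio was 0.38 beside -0.003 for all genes. Ncoa3, which encodes a steroid receptor coactivator, was 2.25-fold higher (467 and 1040 counts), Ewsr1, whose product works with YBX1 in brown fat determination, 2.07-fold (3063 and 6279 counts), and the chromatin remodeller Chd4 and the histone demethylase Kdm1a 1.76-fold each. The lower genes were Tbx15 (149 and 85 counts) and Zfp516 (367 and 218 counts), both transcription factors of brown fat in mice. Of 9 measured repressors of the brown programme 4 were higher and 3 lower, beside the same all-gene shares, with a median of 0.23. Rbl1, which encodes a pocket protein, was 2.19-fold (30 and 65 counts) and Foxo1 1.74-fold higher (748 and 1288 counts), while Twist1, which restrains PGC-1-alpha, was 2.12-fold lower (203 and 95 counts).

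The target lists were read against all genes, of which 22.9% were higher and 22.9% lower. Of 20 adipocyte targets of PPAR-gamma and C/EBP-alpha 1 was higher, 5 were lower and 14 lay in between, and their median log2 ratio was -0.24. The lower count is near the all-gene share, and the higher count was 3 instead of 1 after GC centring. The glycerol kinase gene Gk, which lies on the X chromosome, was 2.57-fold higher (4148 and 10541 counts). The gluconeogenic and glyceroneogenic enzyme gene Pck1 was 2.29-fold lower (45678 and 19758 counts), the acyltransferase gene Agpat2 1.88-fold and Angptl4, an inhibitor of lipoprotein lipase, 1.79-fold lower. Of 16 measured PPAR-alpha targets 3 were higher and 4 lower, both near the all-gene shares, with a median of -0.24. The thioesterase gene Acot1 was 1.97-fold higher (117 and 228 counts), whereas the neighbouring Acot2 was 2.56-fold lower (914 and 354 counts) and Acadl, an acyl-CoA dehydrogenase, 1.64-fold lower. Acot1 and Acot2 are near-identical copies, so the split of reads between them is uncertain.

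Of 17 brown-selective genes 3 were higher, 4 lower and 10 in between, near the 22.9% of all genes in either direction, and their median log2 ratio was -0.02. Dio2, which encodes an enzyme that makes active thyroid hormone, was 4.06-fold (2567 and 10316 counts) and the coactivator Ppargc1a 2.38-fold higher (1734 and 4082 counts). The adhesion gene Mpzl2 was 3.81-fold lower (204 and 53 counts). Of 9 measured white-selective genes, which PRDM16 or EHMT1 activity keeps low in brown fat or which mark white depots, 4 were higher and 1 lower, beside the same all-gene shares, with a median of 0.41. Wfdc21 was 4.49-fold (36 and 160 counts), the angiotensinogen gene Agt 2.72-fold (308 and 828 counts) and Igfbp3 2.64-fold higher (921 and 2410 counts), while the leptin gene Lep was 2.11-fold lower (345 and 162 counts). Muscle, immune and stromal markers also differed between the libraries, by the values given above. The part of those cells in these lists was not tested.

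**Figure D5:**
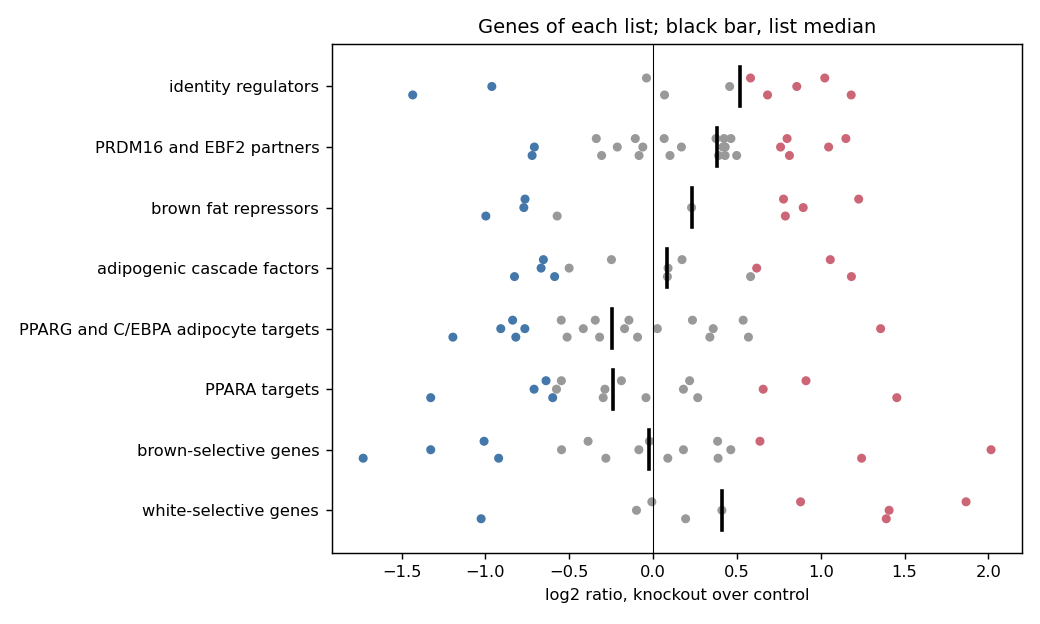
Log2 ratios, knockout over control, of the genes of 8 lists that passed the filter. Each point is 1 gene (red higher, blue lower, grey in between) and the black bar is the list median, which is 0.52 for the identity regulators, -0.24 for the targets of PPAR-gamma and C/EBP-alpha and -0.02 for the brown-selective genes.

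Some of the 10 genes share exons with genes on the opposite strand, which a kit without strand information cannot separate. Tmem189 covers 20.7% of the Cebpb exon (359 and 512 counts) and Spidr 562 of the 3746 bases of the Cebpd exon (64 and 28 counts). Antisense or opposite-strand genes cover 6.12% of the exons of Ebf2 (1 and 2 counts), 1.93% of Cebpa (25 and 15 counts), 1.17% of Prdm16 (0 in both) and 1.05% of Zic1 (Zic4). The remaining members had under 1% of their exons covered by another gene in the table.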

How the data were processed

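RNA was extracted with Trizol and prepared for sequencing, per the labels' protocols, with TruSeq RNA v.2 reagents, which do not mark strand. The deposited values are raw counts for each Ensembl gene, made by the authors with Trimmomatic, HISAT2 and featureCounts on mm10, per the submitters' processing notes. Tool versions, the annotation and how multi-mapping reads were handled were not given in the sources used. The table's other value used here, a gene length in bases, equals the union of the listed exons for all 54532 genes, per the file headers and coordinates.

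Counts were scaled with TMM factors (edgeR 4.0.16, R 4.3.3). Ratios are knockout over control scaled counts with 95% exact binomial (Clopper-Pearson) intervals, and log2 ratios use CPM plus a pseudocount of 0.5, which understates changes of low genes. Levels per length have exact Poisson intervals, and ratios between genes have intervals from the sum of the inverse counts on a log scale. All intervals cover counting error only, since each group was 1 library. Reads without molecular identifiers are not independent molecules, so the intervals can be too narrow even for counting error. With 1 library per group no p-value was computed. The filter kept genes averaging 1 CPM or more. A symbol with several gene identifiers (Ddit3) was read as the one with more counts.

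The 10 members and all gene lists were chosen with earlier results of these data known, and lists hold genes picked from general knowledge of brown fat. Named in the text are the 10 members, Rheb and Ucp1, every paralog, up to 4 genes per pathway list with the largest absolute log2 ratio, the 2 most abundant genes per cell type list and overlapping genes; other marker genes, myogenic regulators, Tbx15, Zfp516 and the pairs used for within-library ratios were named after their values were seen. Some genes that this rule names are not reported here. With 2 libraries each gene has 1 ratio, so no likeness of pattern between genes was computed. Promoter windows and their motifs used RefSeq sequences, and GC content the longest GENCODE M21 transcript (available for 99.9% of kept genes). The member spans equal those of GENCODE M21. The code was tested on simulated counts. Further software was DESeq2 1.42.0, matplotlib 3.10.9, scipy 1.17.1, pandas 2.3.3 and numpy 2.4.6 under Python 3.11.15.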

Additional observations from a re-analysis of the deposited data

How the results depend on the processing

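The alternatives were DESeq2 size factors, total counts, total counts without mitochondrially encoded genes and the 20 most abundant genes, pseudocounts of 0.05 and 2, a 2-fold threshold, no filter or a mean of 10 CPM, level per longest transcript and, chosen after seeing the data, centring on GC content. The counts of higher and lower regulators do not use the pseudocount and were not recomputed without a filter or per longest transcript. In the other settings the count of higher regulators was 5, except with total counts (3, without Ehmt1 and Zic1) and the 2-fold threshold (2), and the count of lower ones was 2, except at the 2-fold threshold (1). With the 10 CPM filter, 3 instead of 5 interferon regulatory factors were higher, and 1 instead of 3 repressors and 1 instead of 2 partners were lower. The median log2 ratio of the 10 stayed between 0.39 (total counts) and 0.58. None of the 7 higher or lower genes changed direction (0 of 28 values). The Cebpa difference ranged from 2.59-fold to 3.34-fold lower (GC centred), Ebf2 from 1.81-fold to 2.16-fold lower, Pparg from 1.86-fold to 2.13-fold higher and Irf4 from 2.12-fold to 2.49-fold higher. Per longest transcript, Cebpb, Cebpa and Pparg kept the first 3 places in the control library and Cebpb, Pparg and Cebpa in the knockout library. Lower in the knockout order, Ebf2 then stood at place 8 (3.62) and Prdm16 at place 9 (3.42). Ppara and Cebpd, whose counting intervals overlapped per kilobase of exon, also changed places there. No paired analysis was possible because there was just 1 library on each side, and no library could be left out. Counting error was widest, relative to the ratio, for Zic1 (1.27 to 1.84) and Cebpd (1.55 to 2.24).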

Other observations

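Among 13 measured factors of the wider adipogenic cascade, 3 were higher in the knockout library, 4 lower and 6 in between, beside 22.9% of all genes higher and 22.9% lower, and their median log2 ratio was 0.09. Srebf1, a transcription factor of lipid synthesis, was 2.27-fold higher (7175 and 16145 counts), and Gata2, which in mice holds back the step from preadipocyte to adipocyte, 2.11-fold higher (444 and 927 counts). Klf15, a factor of mature fat cells, was 1.80-fold lower (523 and 287 counts) and Klf9 1.61-fold lower (493 and 303 counts). Klf5, an early factor that acts between the C/EBP genes and Pparg, had 1 and 10 counts. The glucocorticoid receptor gene Nr3c1 was 1.51-fold lower (1115 and 731 counts). Klf5 and Nr3c1 were picked with their values known.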
